A study of Mus musculus with 12 samples.

Results

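Asxl1, Ppm1d, Sf3b1, Srsf2, U2af1, Zrsr2, Cbl, Gnb1, Bcor and Phf6 are the mouse forms of genes that are recurrently mutated in human clonal hematopoiesis, other than the Tet and Dnmt genes. They were taken by symbol from the deposited gene table, and all 10 were found among its 55450 genes. All 10 also passed the filter on low counts, as did 14346 genes in all. The data are total RNA sequencing of donor-derived Lin- Kit+ cells, the blood stem and progenitor fraction of the marrow, sorted from recipients of competitive bone marrow transplants. Donor cells were labelled WT, Tet2 KO, Id1 KO or Tet2 KO with Id1 KO (called Tet2KO, Id1KO and dKO here), with 3 libraries per label and 12 in all. The labels do not give the alleles, the strain, the ages or the interval after transplantation. Under each label the titles give 1 sample number and differ in an unexplained suffix. Whether the 3 libraries come from separate animals or from 1 cell sample is therefore not known. The tests below compare these libraries only, and their p-values set differences against the spread between libraries, which may be technical.

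Clonal hematopoiesis is the outgrowth of blood cells that descend from 1 mutated stem cell. TET2 is one of its most frequent drivers and acts by oxidizing methylated DNA, while ID1 is a helix-loop-helix protein without a DNA-binding region that holds E proteins off their sites. The 10 genes here fall into 4 functions. SF3B1, SRSF2, U2AF1 and ZRSR2 choose splice sites; ASXL1, BCOR and PHF6 act on chromatin; CBL and GNB1 act in signalling; PPM1D is a phosphatase that switches off the DNA damage response. In human clones these genes act through mutation, whereas only the amount of their RNA was measured here.

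Total counts ran from 15706368 to 19959153 per library. Kit, the gene that defines the sort, was present at 314.0 to 376.8 CPM in the 12 libraries, where CPM is the count scaled to library size by the trimmed mean of M-values. The targeted genes went against the labels. Tet2 stood at 99.3 ± 2.2 CPM (SD, n = 3) in libraries labelled WT and at 129.9 ± 2.5 in those labelled Tet2KO. Id1 stood at 1.47 ± 0.27 CPM in libraries labelled WT and at 3.96 ± 0.34 in those labelled Id1KO, with 3.86 ± 0.42 in Tet2KO and 3.93 ± 0.50 in dKO. Gene totals cannot show the loss of an exon, so neither value tests the alleles, and every direction below is between libraries as labelled. Markers of other cells differed between labels: the summed level of 17 erythroid markers was 1709.7 to 1759.6 CPM in WT, 1018.0 to 1025.6 in Tet2KO, 1896.7 to 1933.4 in Id1KO and 1713.7 to 1738.9 in dKO. In bulk RNA, fewer cells of a type and less RNA per cell cannot be told apart.

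The stretches upstream of Srsf2 and U2af1, which moved together, and of Cbl, which had the largest difference, are printed from RefSeq promoters of build GRCm38.p6. Each ends before the more upstream of the RefSeq and GENCODE starts, leaves out the annotated exons of other genes, and runs 5′ to 3′. Capitals mark CANNTG, the E-box that basic helix-loop-helix proteins bind, whichever strand is read. The motif was chosen with the values known.
Srsf2, chr11:116853095-116853294, minus strand: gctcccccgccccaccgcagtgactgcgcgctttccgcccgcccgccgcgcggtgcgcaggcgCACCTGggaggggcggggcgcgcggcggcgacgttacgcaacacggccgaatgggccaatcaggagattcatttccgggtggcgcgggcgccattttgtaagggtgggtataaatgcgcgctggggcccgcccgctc
U2af1, chr17:31658893-31659014, minus strand: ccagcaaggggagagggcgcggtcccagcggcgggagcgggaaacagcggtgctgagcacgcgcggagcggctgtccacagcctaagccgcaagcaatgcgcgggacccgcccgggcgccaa
Cbl, chr9:44234050-44234296, minus strand: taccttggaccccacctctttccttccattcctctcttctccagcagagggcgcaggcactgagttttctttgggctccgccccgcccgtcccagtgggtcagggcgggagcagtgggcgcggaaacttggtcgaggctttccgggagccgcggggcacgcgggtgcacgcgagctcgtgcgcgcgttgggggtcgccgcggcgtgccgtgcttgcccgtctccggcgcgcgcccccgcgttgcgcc

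RefSeq promoters were matched for 9 of the 10 genes, in windows of 300 bases. CANNTG was found 2 times in the window of Srsf2 (1 of them in the printed stretch), 1 time in that of U2af1 (outside the printed stretch) and 0 times in that of Cbl, and 72.3% of 32841 promoters of the same length hold it. All 3 windows were rich in CpG, with 39 for Srsf2, 40 for U2af1 and 43 for Cbl against a median of 7 over all promoters. The other matched genes also lay above that median, from 13 for Asxl1 to 31 for Gnb1, which was called in no comparison below. More CpG than in Cbl was rare, since 97.4% of promoters held fewer. The files hold no methylation or binding data, so these letters are a description of the sequence.

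Per kilobase of exon, the 10 genes spanned a wide range of levels. Srsf2 was highest at 182.9 CPM per kb averaged over the 12 libraries, followed by Sf3b1 at 59.0, U2af1 at 44.6, Gnb1 at 38.9, Asxl1 at 19.7 and Bcor at 14.7. Cbl at 11.5, Phf6 at 10.1 and Ppm1d at 9.84 lay close together, and Zrsr2 was lowest at 3.69. Among genes close in this order, libraries overlapped for Phf6 and Ppm1d under every label, and for Cbl with each of them in WT. Phf6 and Ppm1d changed places in Tet2KO, by means of 9.75 and 9.81 CPM per kb. Cbl changed place by more. Its mean of 9.73 CPM per kb in WT and 8.94 in Id1KO was below those of Phf6 and Ppm1d (overlapping with both in WT). Its 14.1 in Tet2KO and 13.2 in dKO lay above both without overlap. The least abundant gene, Zrsr2, still had at least 431 counts in every library.

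**Figure D1:**
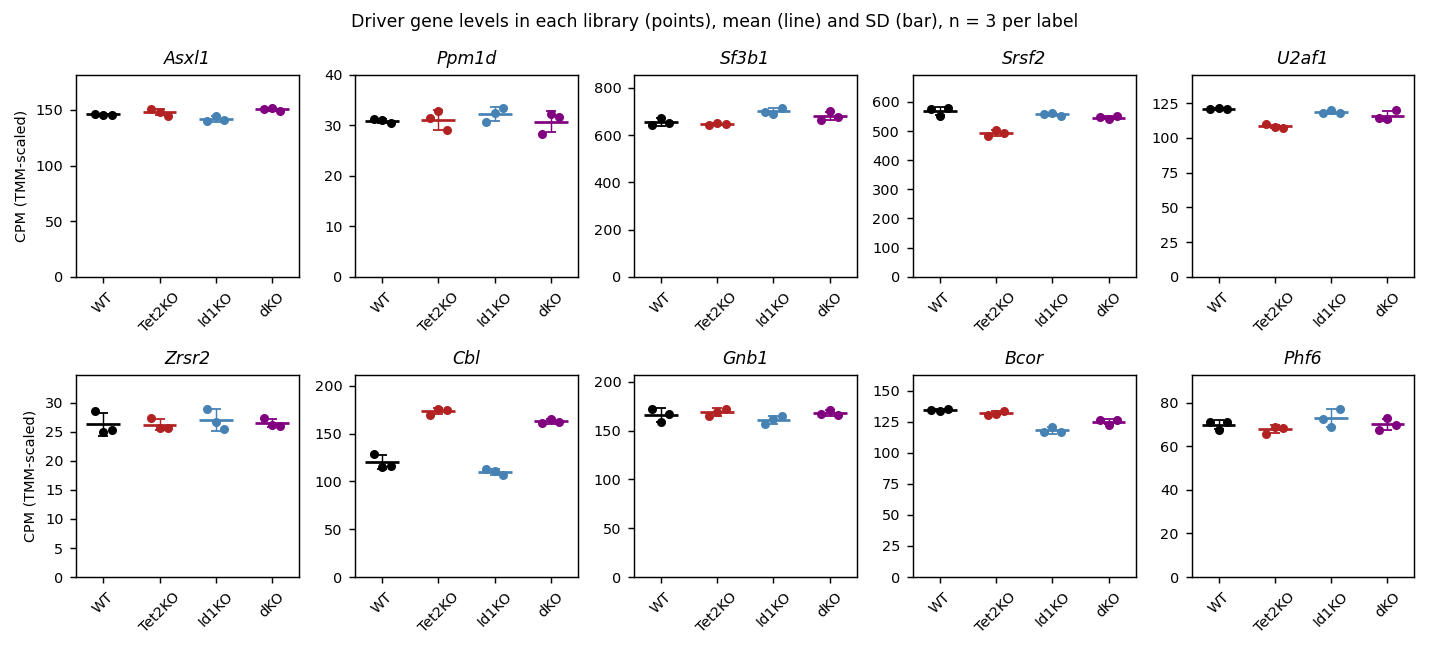
Level of each of the 10 driver genes in CPM (vertical axis from 0) for the 4 labels (horizontal axis), with points for single libraries, a line for the mean and a bar for the SD (n = 3). Cbl separates the labels with a Tet2 knockout from the other 2, Srsf2 and U2af1 are lowest in Tet2KO, and Bcor is lowest in Id1KO.

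The 10 genes were compared in 5 pairs of labels and in the interaction, which asks whether the step from Tet2KO to dKO differs from the step from WT to Id1KO. Genes were called at an adjusted p under 0.05 (edgeR's quasi-likelihood test, adjusted over all 14346 genes). Between Tet2KO and WT 3 of the 10 were called, where 32.8% of all genes were. Between dKO and Id1KO 3 were called against a background of 19.3%, between Id1KO and WT 3 against 15%, and between dKO and Tet2KO 3 against 26.4%. Between dKO and WT 2 were called against 19.2%, and in the interaction 2 against 14.5%. These counts lay within 2 genes of the background share of 10 genes in each comparison. These comparisons share libraries, except that Tet2KO against WT shares none with dKO against Id1KO, and Id1KO against WT shares none with dKO against Tet2KO. Of the 10 genes, 6 were called in at least 1 comparison, and Ppm1d, Zrsr2, Gnb1 and Phf6 in none. The share of all genes called in at least 1 comparison was not counted, so these 6 cannot be set against it. All differences were small apart from that of Cbl: the highest label mean was 1.57 times the lowest for Cbl, 1.15 times for Srsf2 and 1.14 times for Bcor.

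**Figure D2:**
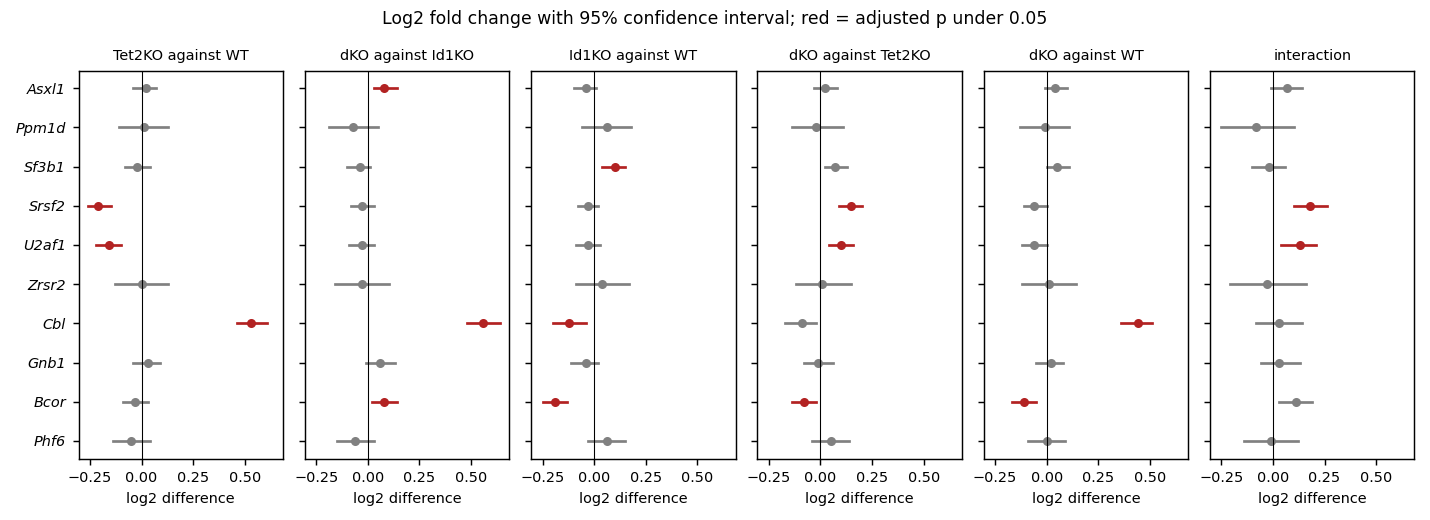
Log2 difference of each driver gene (points) with its 95% confidence interval (lines) in the 5 pairs of labels and the interaction; red marks an adjusted p under 0.05. Cbl stands alone to the right in the 3 comparisons that add a Tet2 knockout label, at 0.53, 0.56 and 0.44, and the other called values lie between -0.21 and 0.18.

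SRSF2 is a serine and arginine rich (SR) protein that binds exonic enhancers and brings the splicing machinery to the exon. Its gene (chr11:116849901-116853094, minus strand, GRCm38) had 574.1, 553.1 and 578.1 CPM in WT and 482.4, 503.0 and 491.5 in Tet2KO. Levels were 558.3, 561.6 and 550.2 CPM in Id1KO and 547.9, 540.2 and 550.2 in dKO. All 3 Tet2KO libraries lay below the other 9. Srsf2 fell by 13.4% between WT and Tet2KO, a log2 difference of -0.21 ± 0.026 (SE, adjusted p = 4.41e-06). It rose again towards dKO by 0.15 ± 0.026 on the log2 scale (adjusted p = 0.00027). The interaction was 0.18 ± 0.037 (adjusted p = 0.00254). With the Id1KO label on both sides the Tet2 knockout label made a difference of -0.03 (95% interval -0.08 to 0.03), which did not pass.

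Exons of Srsf2 overlap those of Mettl23 by 460 bases and of Mfsd11 by 288 bases on the opposite strand. Whether reads were counted by strand is not given in the sources used here. Summed over the 3 genes, of which Srsf2 made up 93.7%, the log2 ratio was -0.20 between Tet2KO and WT and 0.14 between dKO and Tet2KO. Neither Mettl23 nor Mfsd11 passed the test in these comparisons.

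U2AF1 is the small subunit of the factor that reads the AG at the end of the intron. U2af1 (chr17:31647081-31658892, minus strand) was at 120.7, 121.3 and 121.0 CPM in WT and at 109.6, 108.1 and 107.4 in Tet2KO. In Id1KO it was at 117.6, 119.7 and 117.9 CPM, and in dKO at 114.4, 113.4 and 119.7. As for Srsf2, the 3 Tet2KO libraries were the lowest of the 12. U2af1 fell by 10.5% between WT and Tet2KO (log2 difference -0.16 ± 0.029, adjusted p = 0.000233). It was higher in dKO than in Tet2KO by 0.10 ± 0.029 (adjusted p = 0.0178), but did not pass without Tet2KO library 2 (adjusted p = 0.0583), Tet2KO library 3 (0.0719) or dKO library 3 (0.12), nor with DESeq2 (0.0747) or no filter (0.0529). Its interaction, 0.13 ± 0.041 (adjusted p = 0.0386), was lost in 10 of the 12 fits that left out 1 library, with adjusted p of up to 0.139, with DESeq2 (0.146) and with no filter (0.0695). U2af1 shares near-identical sequence with Gm10232 and AC102268.2, so the split of reads among them is uncertain. Their sum, 99.1% of it from U2af1, differed by -0.15 and 0.09 in the same 2 pairs.

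The erythroid markers moved in the same direction as Srsf2 and U2af1. Of the 17 markers tested, 16 were called lower in Tet2KO than in WT (94.1% against 32.8% of all genes). In dKO 16 were called higher than in Tet2KO (94.1% against 26.4%), and no defining marker was at 0. Their part in the values of Srsf2 and U2af1 was not tested. Length also moved with the difference between Tet2KO and WT, in a look taken after the values were known. The median log2 difference of protein-coding genes was -0.06 for those with up to 2 kb of exon and 0.11 for those above 12 kb. The 1127 genes within 10% of the exonic length of Srsf2 had a median of -0.04, and 15.7% of them lay at or below its value. For U2af1 the 969 genes of like length had a median of -0.05, and 24.0% lay at or below its value. The part of length in these results was not tested.

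SF3B1 is the largest part of the U2 particle's SF3B complex, which holds the branch point adenosine. Sf3b1 (chr1:54985169-55027481, minus strand) had 642.0, 674.2 and 651.5 CPM in WT and 643.3, 649.8 and 646.5 in Tet2KO. It had 699.2, 690.4 and 713.7 CPM in Id1KO and 664.3, 701.3 and 676.5 in dKO. The Id1KO libraries all lay above the WT libraries, while the dKO libraries overlapped with both of those labels. Sf3b1 was higher in Id1KO than in WT by 0.10 ± 0.027 on the log2 scale (adjusted p = 0.0211). This call was lost without WT library 1 (adjusted p = 0.07), WT library 3 (0.0644) or Id1KO library 3 (0.0732). From Tet2KO to dKO the difference was 0.07 and narrowly missed the threshold (adjusted p = 0.0508). It passed with DESeq2 (0.0404), without WT library 1 (0.0467) and without dKO library 1 (0.0351). Between Tet2KO and WT the difference was -0.02 (95% interval -0.08 to 0.04).

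ZRSR2 recognizes the end of introns that are removed by the minor spliceosome. Zrsr2 (chrX:163935443-163958661, minus strand) had 28.6, 25.0 and 25.3 CPM in WT, 27.3, 25.7 and 25.7 in Tet2KO, 29.0, 26.7 and 25.4 in Id1KO, and 27.3, 26.2 and 26.0 in dKO. The 4 labels overlapped throughout. The intervals leave room for modest differences: between Tet2KO and WT the 95% interval ran from -0.13 to 0.13 on the log2 scale. Its autosomal relative Zrsr1, at 7.4 CPM over the 12 libraries, did not pass in any pair either.

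Partners of these factors were described from lists drawn up by function. Among 22 other factors of the branch point and 3′ splice site, 8 fell between WT and Tet2KO and 14 did not pass, so that 36.4% were called against 32.8% of all genes. Their median log2 difference was -0.09, where the median of all genes tested was -0.003. Between Tet2KO and dKO 8 of the 22 rose (36.4% against 26.4%), with a median of 0.07. Phf5a, a small subunit of the SF3B complex, was at 76.2 ± 1.9 CPM in WT, 63.8 ± 0.56 in Tet2KO and 76.0 ± 3.4 in dKO. U2surp, a protein of the U2 particle, was at 226.5 ± 6.9, 198.3 ± 0.51 and 224.3 ± 5.7 CPM under the same labels. Between dKO and Id1KO 2 of the 22 rose (9.09% against 19.3%) and the median was 0.01.

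SR proteins and the kinases that phosphorylate them were described in the same way. Of 17 tested, 8 fell and 2 rose between WT and Tet2KO (58.8% against 32.8% of all genes), and 8 rose and 3 fell between Tet2KO and dKO (64.7% against 26.4%). Srsf10, a repressor of splicing when dephosphorylated, was at 220.3 ± 7.0 CPM in WT, 181.5 ± 4.3 in Tet2KO and 219.9 ± 7.2 in dKO. The kinase gene Clk4 went the other way, from 73.8 ± 2.8 to 85.5 ± 2.1 and 72.4 ± 3.8 CPM. Between Id1KO and dKO 8 members of this list fell and 1 rose (52.9% against 19.3%), while Srsf2 itself and Srsf10 did not pass. These were for the most part other genes than those that fell between WT and Tet2KO. Clk4, which rose from WT to Tet2KO, was among those that fell from Id1KO to dKO (-0.24). Of 11 other minor spliceosome genes 2 fell between WT and Tet2KO (18.2% against 32.8%), namely Snrnp35 (-0.27 ± 0.097) and Scnm1 (-0.21 ± 0.071). Scnm1 rose again from Tet2KO to dKO by 0.22 ± 0.072, and Armc7 fell there by 0.50 ± 0.10.

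**Figure D3:**
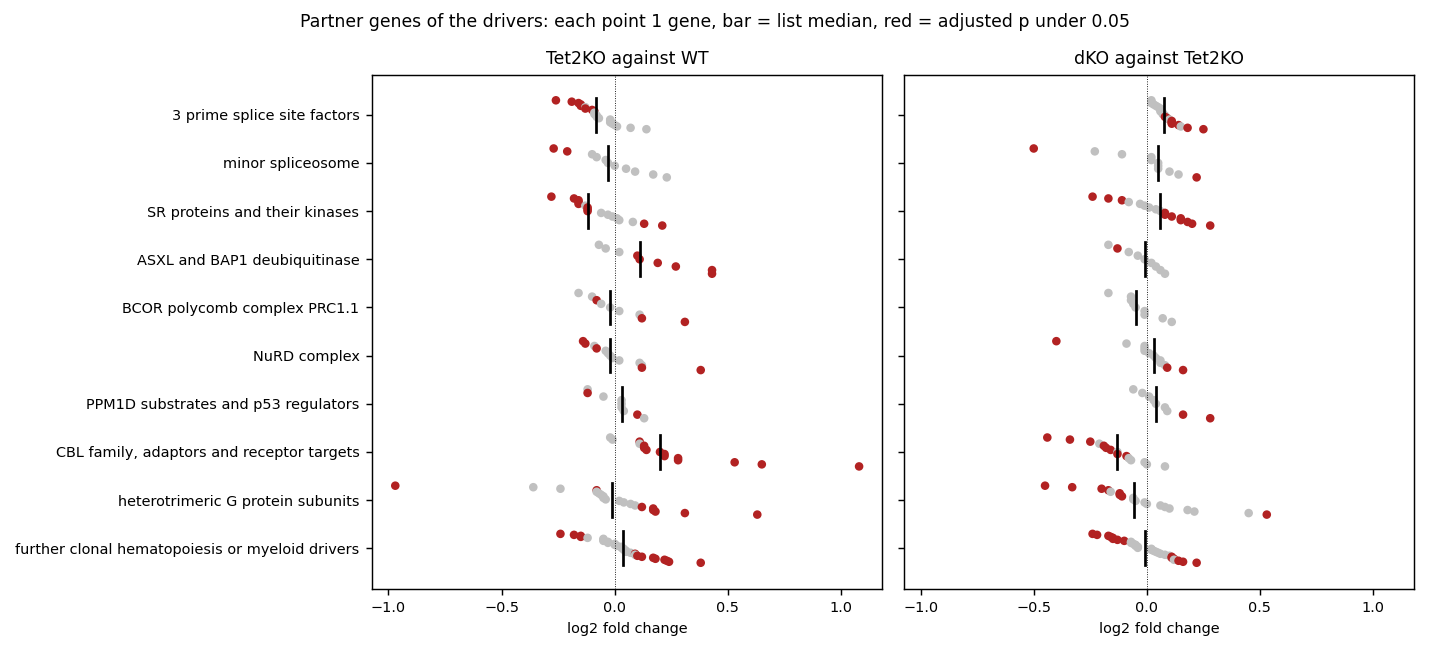
Log2 fold change (horizontal axis) of every tested partner gene, 1 point each, in the 10 lists (vertical axis), for Tet2KO against WT and dKO against Tet2KO; black bars are list medians and red marks an adjusted p under 0.05. The median of the 3′ splice site list lies left of 0 in the left panel (-0.09) and right of it in the right panel (0.07), and that of the CBL list does the reverse (0.20 and -0.13).

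ASXL1 is a partner of the deubiquitinase BAP1, which removes ubiquitin from histone H2A. Asxl1 (chr2:153345829-153404007, plus strand) stood at 146.6, 145.6 and 145.6 CPM in WT, 150.5, 148.3 and 144.8 in Tet2KO, 140.1, 144.8 and 140.6 in Id1KO, and 150.7, 151.5 and 148.9 in dKO. All dKO libraries lay above all Id1KO libraries, while Tet2KO overlapped with WT. The difference between dKO and Id1KO was 0.08 ± 0.027 (adjusted p = 0.0331). It did not pass without Id1KO library 1 (adjusted p = 0.127) or 3 (0.104), without dKO library 1 (0.0813), 2 (0.0711) or 3 (0.0559), with DESeq2 (0.135), with no filter (0.124) or with only the libraries compared (0.0839). An opposite-strand gene, 2500004C02Rik, overlaps 197 exonic bases of Asxl1, which made up 98.0% of their sum.

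Asxl1 lies on the chromosome of Id1, 0.608 Mb away. Between Id1KO and WT it did not pass (-0.04, 95% interval -0.10 to 0.01, adjusted p = 0.338). Of 47 tested genes within 2 Mb of Id1, 8 were called in that pair (17.0% against 15% of all genes), 2 higher and 6 lower. Between dKO and Tet2KO 22 were called, or 46.8% against 26.4%. Zcchc3 and Tspyl3 had the largest called differences in the first pair. Zcchc3 differed by -0.51 ± 0.11 there and by -0.61 ± 0.11 between dKO and Tet2KO. Tspyl3 differed by -0.37 ± 0.068 and -0.35 ± 0.069. Between Tet2KO and WT 20 of the 47 were called (42.6% against 32.8%).

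**Figure D4:**
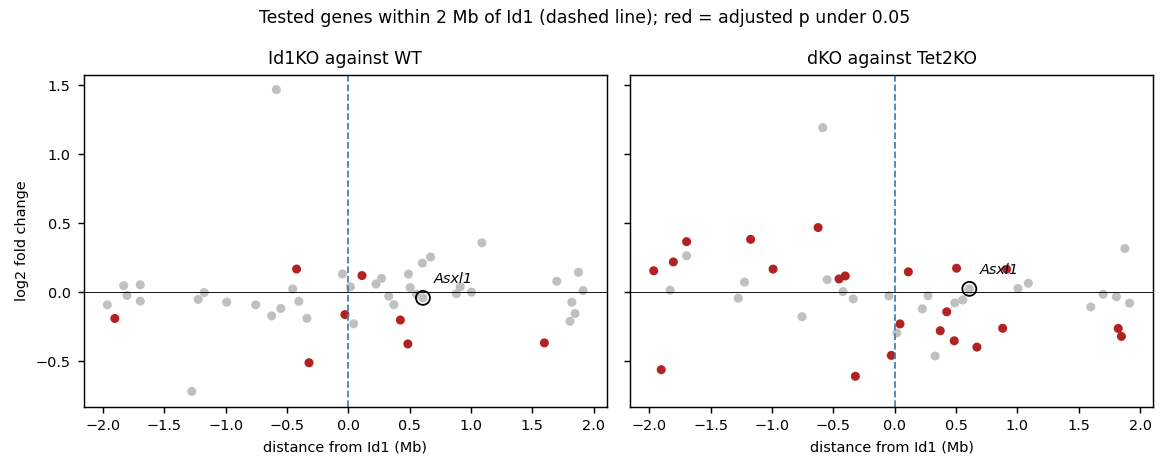
Log2 fold change (vertical axis) of the 47 tested genes within 2 Mb of Id1 against their distance from it in Mb (horizontal axis), for Id1KO against WT and dKO against Tet2KO; red marks an adjusted p under 0.05. Asxl1 (ringed) lies at -0.04 and 0.02, near 0 in both panels.

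Of 9 tested members of the BAP1 complexes and their relatives 6 rose between WT and Tet2KO and 3 did not pass (66.7% called against 32.8% of all genes), with a median of 0.11. Mbd5, from 18.6 ± 0.48 to 25.0 ± 0.72 CPM, and Mbd6, from 17.2 ± 1.8 to 23.2 ± 0.87 CPM, encode proteins that bind the BAP1 complex. The paralog Asxl2 rose by 0.11 ± 0.039 (adjusted p = 0.0391), whereas Asxl1 differed by 0.02 (95% interval -0.04 to 0.07). Between Tet2KO and dKO 1 of the 9 was called (11.1% against 26.4%), Foxk1, which fell by 0.13 ± 0.042.

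BCOR is the scaffold of PRC1.1, a polycomb complex that places ubiquitin on histone H2A at unmethylated CpG islands. Bcor (chrX:12036740-12160355, minus strand) stood at 134.4, 133.7 and 135.5 CPM in WT and 130.6, 131.1 and 133.9 in Tet2KO. It stood at 116.4, 121.0 and 116.3 CPM in Id1KO and 126.3, 122.6 and 125.9 in dKO. The 3 Id1KO libraries were the lowest of all, and the dKO libraries lay between them and Tet2KO without overlap. Bcor fell by 12.3% between WT and Id1KO (log2 difference -0.19 ± 0.028, adjusted p = 8.8e-05). From Tet2KO to dKO it fell by 0.08 ± 0.028 (adjusted p = 0.0465), and from WT to dKO by 0.11 ± 0.028 (adjusted p = 0.0103). From Id1KO to dKO it rose by 0.08 ± 0.028 (adjusted p = 0.0451). The interaction did not pass (0.11 ± 0.04, adjusted p = 0.0659), so the steps between the Id1 labels were not shown to differ. Without Id1KO library 2 the interaction passed (adjusted p = 0.0437).

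Of these 4 calls for Bcor, only that between Id1KO and WT held in every alternative fitted at the same threshold. The fall from WT to dKO was lost without WT library 3 (adjusted p = 0.0513). The fall from Tet2KO to dKO was lost in 9 of the 12 fits that left out 1 library (adjusted p of up to 0.155) and the rise from Id1KO to dKO in 10 of 12 (up to 0.157), and both were lost with DESeq2 (0.137 and 0.177), with no filter (0.116 and 0.149) and with only the libraries compared (0.0724 and 0.104). The rise was also lost with each of the 3 other scalings (0.051 to 0.0599).

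PHF6 is a chromatin protein with a pair of zinc finger domains that binds the NuRD deacetylase complex. Phf6 (chrX:52912266-52956943, plus strand) was at 71.1, 67.5 and 71.2 CPM in WT, 65.6, 69.0 and 68.6 in Tet2KO, 72.5, 68.8 and 77.3 in Id1KO, and 67.6, 72.8 and 69.8 in dKO. The labels overlapped, and none of the comparisons passed. The interval for Id1KO against WT ran from -0.03 to 0.15 on the log2 scale, and that for Tet2KO against WT from -0.14 to 0.04.

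Zrsr2, Bcor and Phf6 are X-linked, and the labels differed in sex-linked RNA. Xist, the RNA that coats the inactive X, averaged 262.2 ± 10 CPM over the WT libraries (SD), against 10.8 ± 1.1 for Tet2KO, 64.9 ± 4.3 for Id1KO and 16.7 ± 0.36 for dKO. The Y-linked gene Ddx3y was at 48.9 ± 2.5 CPM in WT and at 87.7 ± 3.4, 93.4 ± 4.5 and 82.1 ± 3.0 under the other labels in the same order, and Eif2s3y, Kdm5d and Uty were also lowest in WT. Every library held both Xist (9.89 to 272.2 CPM) and Ddx3y (46.1 to 98.5 CPM). Whether each library mixed cells of both sexes was not tested. Of 446 tested X-linked genes 52 were called between Id1KO and WT, 19 higher and 33 lower, or 11.7% against 15% of all genes. The part of sex-linked differences in the fall of Bcor was not tested.

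Among 9 other genes of PRC1.1, 2 rose and 1 fell between WT and Tet2KO (33.3% called against 32.8% of all genes). The paralog Bcorl1 rose from 20.9 ± 2.1 to 26.0 ± 1.0 CPM and Rybp, a subunit of the complex, from 42.6 ± 2.1 to 46.5 ± 0.84. Between Id1KO and WT, the pair in which Bcor fell, 1 of the 9 was called (11.1% against 15%) and it was higher. Of 13 NuRD genes 2 rose and 3 fell between WT and Tet2KO (38.5% against 32.8%). Gatad2b rose from 51.6 ± 1.8 to 67.1 ± 3.9 CPM and Mta3 fell from 36.7 ± 0.90 to 33.2 ± 0.53. From Tet2KO to dKO the remodeller gene Chd3 fell from 105.6 ± 2.7 to 79.8 ± 3.0 CPM, while Mbd2, which encodes a protein that binds methylated DNA, rose from 76.8 ± 0.40 to 85.7 ± 1.5.

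CBL is a ubiquitin ligase that marks activated receptor kinases such as KIT and FLT3 for breakdown. Cbl (chr9:44142976-44234049, minus strand) was at 128.7, 115.5 and 116.2 CPM in WT and at 169.8, 176.3 and 175.0 in Tet2KO. It was at 113.3, 110.5 and 107.1 CPM in Id1KO and at 160.8, 165.5 and 162.1 in dKO. The 6 libraries with a Tet2 knockout label all lay above the 6 without one. Cbl rose 1.45-fold between WT and Tet2KO (log2 difference 0.53 ± 0.036, adjusted p = 9.22e-10), and 9.91% of all genes tested had a larger difference in either direction. Between Id1KO and dKO, which share no library with the first pair, it rose 1.48-fold (0.56 ± 0.037, adjusted p = 1.18e-09). The interaction was 0.03 (95% interval -0.08 to 0.14, adjusted p = 0.764). These rises held in every alternative run, including a test against a 1.2-fold change that none of the other 9 genes passed in any comparison.

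With the Id1 labels Cbl differed less. It was lower in Id1KO than in WT by a log2 difference of -0.12 ± 0.037 (adjusted p = 0.0313). Without WT library 1, the highest of its label, this was -0.07 (adjusted p = 0.222), and it was also lost without Id1KO library 2 (0.0665) or 3 (0.146) with DESeq2 (0.0512) and with only the libraries compared (0.0565). Between dKO and Tet2KO the difference of -0.09 missed the threshold (adjusted p = 0.0584) and passed it without WT library 1 (0.0175), WT library 2 (0.0489) or dKO library 2 (0.0489), and also with upper-quartile scaling (0.0465), no filter (0.0318) and only the libraries compared (0.0315).

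Cbl has a long transcript, with 12345 bases of exon, and long genes tended to be higher in Tet2KO. The 418 protein-coding genes within 10% of its length had a median log2 difference of 0.08 between Tet2KO and WT, and 3.59% of them lay at or above Cbl. Between dKO and Id1KO their median was 0.03 and 2.15% lay at or above it. Set against these medians Cbl was higher by 0.45 and 0.53. Markers of myeloid cells also differed in these pairs. Of 11 neutrophil granule markers 6 were higher and 2 lower in Tet2KO than in WT (72.7% called against 32.8% of all genes). In dKO 4 of these markers were higher and 1 lower than in Id1KO (45.5% against 19.3%). Their summed level was 14437.6 to 14512.9 CPM in WT, 15935.1 to 16177.0 in Tet2KO, 12231.3 to 13188.0 in Id1KO and 12031.0 to 13207.0 in dKO. Of 5 tested monocyte and dendritic markers 2 were higher and 1 lower in Tet2KO than in WT, and 4 were higher in dKO than in Id1KO, with medians of 0.04 and 0.41. Summed, the markers of that list were at 1318.4 to 1341.1 CPM in WT, 1341.5 to 1378.9 in Tet2KO, 1156.9 to 1162.8 in Id1KO and 1430.7 to 1472.4 in dKO, and no marker of either list was at 0. The part of length and of these cells in the rise of Cbl was not tested.

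Of 15 tested adaptors, relatives and receptor targets of CBL 12 rose between WT and Tet2KO and 3 did not pass (80.0% called against 32.8% of all genes), with a median of 0.20. Between Id1KO and dKO 6 rose and 3 fell, or 9 of the 15, where 19.3% of all genes were called. From Tet2KO to dKO, where Cbl did not pass, 8 fell (53.3% against 26.4%) with a median of -0.13. The paralog Cblb rose from 29.1 ± 1.4 to 33.8 ± 2.7 CPM between WT and Tet2KO (0.22 ± 0.058, adjusted p = 0.00641), and from 27.0 ± 0.92 to 30.9 ± 0.75 between Id1KO and dKO (0.19 ± 0.06, adjusted p = 0.0295). Flt3, a receptor that CBL marks for breakdown, rose from 68.9 ± 0.80 to 99.4 ± 0.94 CPM between WT and Tet2KO and was at 73.3 ± 2.1 in dKO. Ubash3b, whose product is a phosphatase that binds CBL, fell from 32.3 ± 1.0 to 25.5 ± 1.0 CPM between Tet2KO and dKO.

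GNB1 is the beta subunit of heterotrimeric G proteins, which carry signals from receptors such as those for chemokines. Gnb1 (chr4:155491361-155559269, plus strand) stood at 172.3, 158.6 and 167.1 CPM in WT, 165.3, 169.1 and 172.6 in Tet2KO, 156.9, 161.7 and 164.6 in Id1KO, and 166.7, 171.3 and 165.9 in dKO. No comparison passed, and the widest departure was 0.06 between dKO and Id1KO (95% interval -0.01 to 0.13), whose libraries did not overlap. Its relative Gnb2 did not pass in any pair. Of 20 other subunit genes tested 6 rose and 2 fell between WT and Tet2KO, and 1 rose and 7 fell between Tet2KO and dKO. In both pairs 40.0% were called, where 32.8% and 26.4% of all genes were. Gnb4, a beta subunit gene, was at 28.0 ± 0.62 CPM in WT, 14.3 ± 1.1 in Tet2KO and 20.5 ± 0.79 in dKO. Gng11, a gamma subunit gene, was at 3.89 ± 0.22, 6.0 ± 0.57 and 4.4 ± 0.54 CPM.

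PPM1D, a phosphatase induced by p53, removes phosphate from p53 and from the kinases that activate it. Ppm1d (chr11:85311244-85347066, plus strand) was at 31.2, 31.0 and 30.4 CPM in WT, 31.4, 32.9 and 29.0 in Tet2KO, 30.7, 32.5 and 33.4 in Id1KO, and 28.3, 32.2 and 31.6 in dKO. The labels overlapped and no comparison passed. Its interval for Tet2KO against WT ran from -0.11 to 0.13, and that for dKO against Id1KO from -0.19 to 0.05. Of 9 substrates and p53 regulators 1 rose and 1 fell between WT and Tet2KO, and 2 rose between Tet2KO and dKO. In both pairs 22.2% were called, below the 32.8% and 26.4% of all genes. The list lay above the background in 2 other pairs. Between WT and Id1KO 4 of the 9 rose and 0 fell (44.4% against 15%). Between WT and dKO 3 rose and 0 fell (33.3% against 19.2%). Between Id1KO and dKO 1 fell (11.1% against 19.3%). Trp53, which encodes p53, rose from 107.3 ± 5.9 to 114.8 ± 3.0 CPM between WT and Tet2KO (0.10 ± 0.036, adjusted p = 0.0422) although its libraries overlapped. The checkpoint kinase gene Atr was at 140.9 ± 3.1 CPM in WT, 129.7 ± 2.4 in Tet2KO and 144.7 ± 6.2 in dKO, and Chek2 rose from 30.8 ± 0.71 to 37.3 ± 1.1 CPM between Tet2KO and dKO.

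A further 30 tested genes that drive clonal hematopoiesis or myeloid disease were counted for comparison. Between WT and Tet2KO 9 rose and 4 fell (43.3% called against 32.8% of all genes), and between Tet2KO and dKO 6 rose and 8 fell (46.7% against 26.4%). Crebbp, a histone acetyltransferase gene, rose from 120.2 ± 7.1 to 156.7 ± 4.2 CPM between WT and Tet2KO. Runx1, which encodes a transcription factor of blood stem cells, rose from 141.0 ± 5.0 to 167.1 ± 2.3 CPM. The transcription factor genes Etv6, from 257.5 ± 3.3 to 217.6 ± 6.9 CPM, and Cux1, from 293.6 ± 4.1 to 251.5 ± 3.9 CPM, fell between Tet2KO and dKO. Between Tet2KO and WT the log2 differences of Crebbp and Runx1 were 0.38 and 0.24, smaller than the 0.53 of Cbl. Between dKO and Tet2KO those of Etv6 and Cux1 were -0.24 and -0.22, larger in size than the -0.09 of Cbl, which did not pass.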

How the data were processed

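The values are estimated counts of each gene in 12 libraries, which the authors made with STAR and RSEM and deposited, on build mm10 (GRCm38), per the submitters' processing notes; versions, annotation and strand setting are not given in the sources used here. Per the labels' protocols, RNA came from an RNeasy Micro kit and libraries from a stranded total RNA kit with ribosomal RNA depletion. All 55450 identifiers match GENCODE M21, which gave positions and exonic lengths. Values (not whole in 8.25% of genes) were rounded. Genes passing filterByExpr (minimum count 10) were scaled by TMM and fitted together, with 1 mean per label and no covariate, in edgeR 4.0.16 (R 4.3.3, limma 3.58.1), using glmQLFit and glmQLFTest with two-sided tests and Benjamini-Hochberg adjustment over all genes tested. The SE is the log2 fold change over the root of F. The scripts were tested on simulated counts. Near-identical sequence (identity of at least 95% over at least 100 bases) was found with blast 2.17.0. Library totals run from 15706368 to 19959153 and intervals cover only the spread between these libraries. The 12 library pairs within a label differed beyond sampling noise (chi-square per degree of freedom 1.524 to 5.35), so none was treated as a second copy of another, which does not tell separate animals from repeat preparations. Alternatives were other scalings, filters and thresholds, DESeq2 1.42.0, fits of only the libraries compared, a block, and leaving out each library. Named genes were the members, their paralogs, the targeted and sex-linked genes, and from each partner list the 2 largest called changes with at least 5 CPM, for Tet2KO against WT and likewise for dKO against Tet2KO; near Id1, the 2 largest called in Id1KO against WT. A gene that this rule names is not reported here. The members and lists were chosen with earlier results of these data known. Length was looked at after seeing the values.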

Additional observations from a re-analysis of the deposited data

Results flagged for a closer look

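Srsf2 had an interaction of 0.18 on the log2 scale: the step from Tet2KO to dKO was 0.15 and that from WT to Id1KO was -0.03 (95% interval -0.08 to 0.02), and the test of their difference passed (edgeR, adjusted p = 0.00254). It passed in every alternative fitted at the same threshold, with adjusted p of up to 0.0129. U2af1 had an interaction of 0.13 from steps of 0.10 and -0.03 (adjusted p = 0.0386), which was lost in most fits that left out 1 library. Of the 17 erythroid markers tested, 15 were also called higher in the interaction (88.2% against 14.5% of all genes).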

How the results depend on the processing

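Of the 16 called values for the 10 genes, 8 kept their call in every alternative fitted at the same threshold, and no value of the 60 changed direction past the threshold. Calls for Cbl in the 3 comparisons that add a Tet2 knockout label, for Srsf2, for U2af1 between Tet2KO and WT and for Bcor between Id1KO and WT were among the 8. The number of genes called between dKO and Id1KO went from 3 to 1 with DESeq2, with no filter, with only the libraries compared, with an adjusted p under 0.01 and with a test against a 1.2-fold change (glmTreat), and it ranged from 1 to 3 when 1 library was left out. The count for the interaction went from 2 to 1 with DESeq2, with no filter and with an adjusted p under 0.01, and to 0 with glmTreat, and ranged from 1 to 3. Between Id1KO and WT the count of 3 became 1 with an adjusted p under 0.01 and 0 with glmTreat, and ranged from 1 to 3. Between dKO and Tet2KO the count of 3 became 1 and 0 in the same settings, and ranged from 1 to 5. The counts of 0 were also 0 at an unadjusted p under 0.05. Between dKO and WT the count of 2 became 1 with either setting and ranged from 1 to 2, and between Tet2KO and WT the 3 became 1 with glmTreat. With the title suffix as a replicate block the counts were 3, 2, 3, 2 and 2 in the 5 pairs (Tet2KO and WT, dKO and Id1KO, Id1KO and WT, dKO and Tet2KO, dKO and WT) and 1 in the interaction. The calls lost under the block were those of Bcor between dKO and Id1KO (adjusted p = 0.0685) and between dKO and Tet2KO (0.0702) and of U2af1 in the interaction (0.0607). Deviations of same-suffix libraries correlated by -0.097 to 0.113 over 18 pairs (median 0.026). Those of other pairs correlated by -0.104 to 0.174 over 36 pairs (median -0.014). With 3 libraries per label, correlations this weak cannot show whether the suffix pairs the samples. Over all genes tested, glmTreat called 769 between Tet2KO and WT (4699 without it), 481 between dKO and Id1KO (2762), 140 between Id1KO and WT (2156), 334 between dKO and Tet2KO (3793), 477 between dKO and WT (2754) and 237 in the interaction (2078). An adjusted p under 0.01 left 3122, 1599, 1085, 2285, 1557 and 972 in the same order, and DESeq2 called 1418 between Id1KO and WT and 1350 in the interaction. Why calls changed was not tested. Depth limits Zrsr2 and Ppm1d most, whose SE of about 0.06 leaves intervals of about 0.13 to each side between Tet2KO and WT.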
